A study of Mus musculus with 9 samples.

Results

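White adipose tissue of obese, leptin-deficient ob/ob mice was compared with that of lean wild type mice across every annotated transcript cluster of a mouse expression array. The comparison used 6 of the 9 arrays in the series, chosen by their titles: 3 of ob/ob mice that received vehicle and 3 of C57BL/6JHamSlc-+/+ mice that received vehicle. The remaining 3 arrays are from ob/ob mice that received Vigna umbellata extract at 100 mg/kg, and they entered only the estimate of the spread. Obese animals were of the strain C57BL/6JHamSlc-ob/ob and lean animals of C57BL/6JHamSlc-+/+. All were males, obtained at 6 weeks of age and kept for 1 week before a study of 42 days on standard chow. Each group held 3 mice by the text of the series, and whether tissue of several animals was pooled was not given in the sources used here. The labels name the tissue only as WAT (white adipose tissue), so the fat depot is not known. The mutation is present in every cell of the animal, and lack of leptin, overeating and obesity cannot be told apart by this design.

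Fat cells store triglyceride in a single large droplet and release the hormone leptin, encoded by Lep, which acts on the brain to limit food intake. Mice homozygous for ob make no working leptin, overeat and become obese. In expanding fat, macrophages gather around overloaded and dying fat cells, take up their lipid and break it down in lysosomes, the acidic compartments that a proton pump, the V-ATPase, keeps at low pH. Genes of the lysosome are under the control of the MiT/TFE family of transcription factors (Mitf, Tfeb, Tfe3 and Tfec), which bind a short palindromic sequence in their promoters. Fat also holds blood vessels, fibroblasts that lay down collagen, and a mesothelial coat, and some depots lie against organs of the urogenital tract.

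Values are log2 signals as deposited, so that a difference of 1 is a 2-fold difference, and they compare arrays for 1 cluster, not clusters with each other. In what follows 3 values in a row belong to arrays 1, 2 and 3 of a group, a mean is followed by ± its SD over the 3 arrays, and a difference is ob/ob minus wild type, followed by ± its SE in limma's fit. "Called" means a limma p under 0.05 after Benjamini-Hochberg adjustment over 19572 clusters. The array medians lay between 6.26 and 6.37. Pearson's r between arrays, across clusters, was 0.980 to 0.987 among the ob/ob arrays and 0.933 to 0.956 among the wild type arrays, and the median SD of a cluster was 0.296 and 0.407. The first principal component of the 6 arrays held 59.7% of the variance and placed the ob/ob arrays at -75.5, -81.4 and -67.5 and the wild type arrays at 86.3, 105.7 and 32.5. The second held 17.2% and spread the wild type arrays from -45.1 for array 2 to 89.2 for array 3, while the ob/ob arrays lay between -15.0 and -9.3.

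Of the 19572 clusters, 1766 (9.02%) were called higher in ob/ob fat and 988 (5.05%) lower, together 14.1%. All 3 ob/ob arrays lay above all 3 wild type arrays in 15.7% of clusters and below them in 13.1%. A difference of over 4 (16-fold) was reached by 132 clusters called higher and 66 called lower. With 3 arrays a side an exact permutation test stops at p = 0.1, and every call uses the spread that limma estimates over all clusters. The fit also assumes the same spread in all groups of a cluster. Where the wild type arrays scatter far more than the ob/ob arrays, the printed SE and adjusted p can be too small. The median difference over all clusters was -0.0367. The ob/ob mean stood 1 or more above each single wild type array in 1166 (66.0%) of the clusters called higher. Among the clusters called lower, 486 (49.2%) stood 1 or more below each wild type array. Another 245 of the higher and 155 of the lower calls had such a difference against wild type arrays 1 and 2 but lay within 1 of array 3. Without wild type arrays 1 and 2, with array 3 as the lone wild type sample, 970 of the 1766 higher and 533 of the 988 lower clusters were still called. In that fit the counts were 1162 higher and 1041 lower, the spread came from the ob/ob arrays alone, treated with vehicle or extract, and the lone wild type sample was assumed to vary like them. The median SD of the ob/ob vehicle arrays was below that of the wild type arrays, as given above. Without ob/ob array 2 the counts were 1169 higher and 472 lower, and the lower count was 617 without ob/ob array 1 and 603 without ob/ob array 3.

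**Figure D1:**
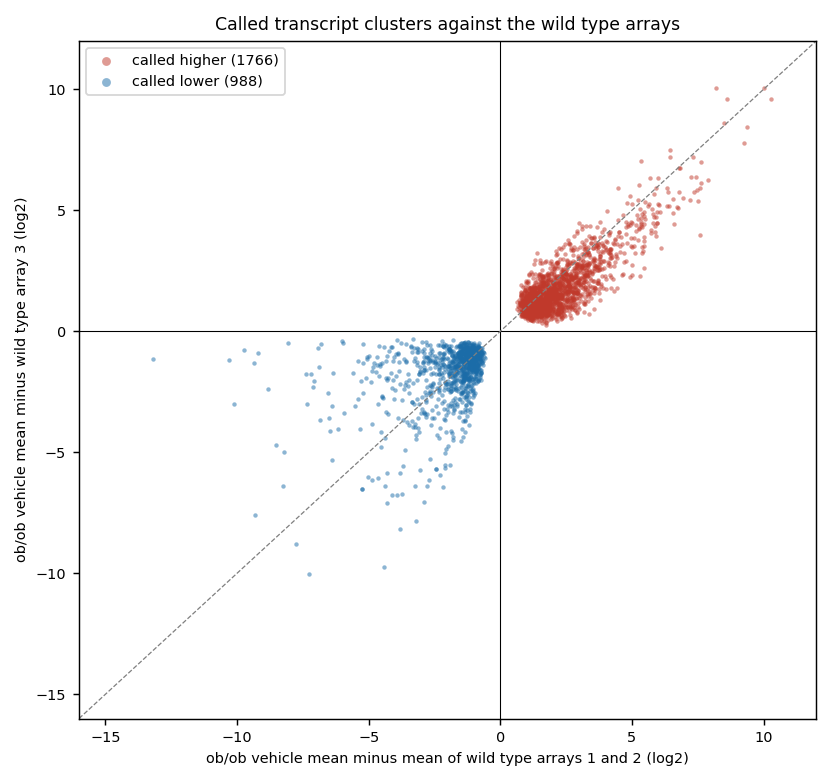
Each point is 1 called transcript cluster, with the ob/ob vehicle mean minus the mean of wild type arrays 1 and 2 on the x axis and the ob/ob vehicle mean minus wild type array 3 on the y axis, both in log2 units; the dashed line marks equal differences. The 1766 clusters called higher (red) include 245 that lie 1 or more above arrays 1 and 2 but within 1 of array 3, and the 988 called lower (blue) include 155 such on the other side.

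The wild type arrays differed from each other in transcripts typical of other tissues. Genes of epithelium read higher on all 3 wild type arrays than on the ob/ob arrays, least so on array 3. The median level of the 31 epithelial adhesion and keratin genes was 8.40, 8.45 and 6.63 on the wild type arrays and 4.77 to 4.80 on the ob/ob arrays. Genes of smooth muscle had a median level of 10.02, 14.49 and 8.44 on the wild type arrays against 6.25 to 6.83 on the ob/ob arrays, so wild type array 2 stood highest. Genes that the liver secretes had a median level of 11.58, 7.29 and 14.27 on the wild type arrays and 11.52 to 13.18 on the ob/ob arrays, so the same array stood lowest. In bulk tissue, fewer cells of a type and less RNA per cell cannot be told apart. The part of such tissue in the other differences was not tested. Wild type array 3 had the lowest epithelial and smooth muscle levels of the wild type arrays. The same array had the highest median level of the epididymis, seminal vesicle and prostate genes, 5.56 against 4.77 and 4.63 on arrays 1 and 2. Genes named by the rule described under processing whose call ended without arrays 1 and 2 are given with their value against array 3 alone. Genes named outside that rule are mostly given without it. Among these, Angpt2, Cd22, Csf3r, Rora, Slc2a3, Egln3 and Gata2 were also not called in that fit.

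The samples carried the transcripts that define fat. Adipoq, the fat cell hormone adiponectin, read 17.99, 17.93 and 18.87 on the wild type arrays (mean 18.26 ± 0.53) and 18.52, 18.07 and 18.37 on the ob/ob arrays (mean 18.32 ± 0.23). Plin1, the coat protein of the fat droplet, read 14.14, 13.76 and 15.35 on the wild type arrays (mean 14.42 ± 0.83) and 14.87, 14.65 and 14.81 on the ob/ob arrays (mean 14.78 ± 0.11). The groups overlapped for both, with differences of 0.06 ± 0.28 (adjusted p = 0.923) and 0.36 ± 0.36 (adjusted p = 0.577). Without wild type array 3, on which both read highest, Plin1 was called, at 0.83 (adjusted p = 0.0436).

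**Figure D2:**
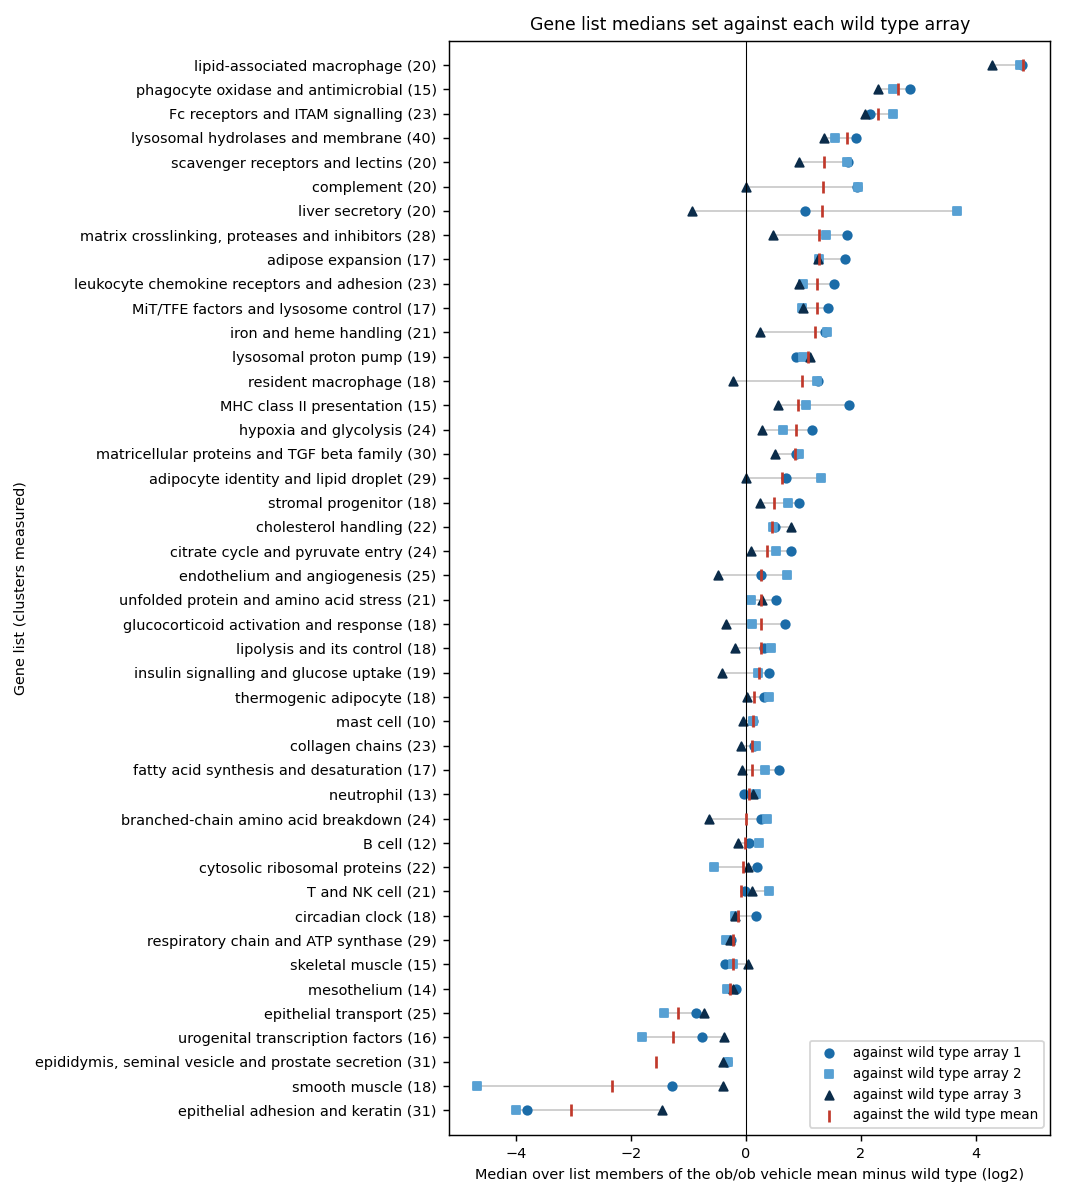
Each row is a gene list with the number of its measured clusters, and the x axis is the median over its members of the ob/ob vehicle mean minus wild type, in log2 units, against wild type arrays 1, 2 and 3 (blue symbols) and their mean (red bar). The lipid-associated macrophage list lies at 4.28 to 4.80 against each array, while the smooth muscle list runs from -4.68 to -0.40 and the liver list from -0.94 to 3.67; the median of the epididymal and seminal vesicle list against the mean, -1.57, lies outside its 3 single-array medians.

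Leptin transcript and 8 of 17 genes of fat expansion rose in ob/ob fat, while fat cell identity genes were called in both directions. Lep read 14.22, 13.22 and 16.72 on the wild type arrays (mean 14.72 ± 1.80) and 19.02, 19.24 and 18.77 on the ob/ob arrays (mean 19.01 ± 0.24). All ob/ob arrays lay above all wild type arrays, by 4.29 ± 0.69 (adjusted p = 0.00276), and wild type array 3 stood closest, with a difference of 2.29. The cluster is not known to cover the ob mutation, so it does not check the genotype. Mest, an imprinted gene whose level follows fat mass expansion, read 10.04, 12.39 and 14.84 on the wild type arrays (mean 12.42 ± 2.40) and 18.24, 18.93 and 19.25 on the ob/ob arrays (mean 18.81 ± 0.52). The wild type arrays ran from 10.04 to 14.84 and still all lay below the ob/ob arrays, for a difference of 6.38 ± 0.95 (adjusted p = 0.00177). Sfrp5, a secreted binder of Wnt ligands made by fat cells, read 5.62, 5.47 and 5.69 on the wild type arrays (mean 5.59 ± 0.11) and 13.24, 12.66 and 12.72 on the ob/ob arrays (mean 12.87 ± 0.32). The wild type arrays were tightly grouped and the difference was 7.28 ± 0.29 (adjusted p = 2.96e-06). Of 17 measured genes of fat expansion, 8 (47.1%) were called higher and 0 lower, beside 9.02% and 5.05% of all clusters. The median difference was 1.27, and it was 1.73, 1.27 and 1.26 against wild type arrays 1, 2 and 3. Of the 8, 6 were called in each fit that left out 1 array. Fgf13, a member of the fibroblast growth factor family that stays inside the cell, was higher by 5.14 ± 0.42 (adjusted p = 5.32e-05), and Plin2, the coat of small lipid droplets in many cell types, by 5.35 ± 0.47 (adjusted p = 7.57e-05). The 8 include Trem2, a receptor of macrophages whose values are given with their genes. Sfrp2, another Wnt binder, differed least, at 0.40 ± 1.06, with overlapping groups. One member was called lower without wild type array 3.

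Among 29 genes of fat cell identity and the lipid droplet, 7 (24.1%) were called higher and 3 (10.3%) lower, beside 9.02% and 5.05% of all clusters. Trarg1, which helps to return the glucose transporter GLUT4 to the cell surface, read 12.81, 13.19 and 14.52 on the wild type arrays (mean 13.51 ± 0.90) and 16.07, 16.00 and 15.95 on the ob/ob arrays (mean 16.01 ± 0.06). Every ob/ob array lay above every wild type array, by 2.50 ± 0.39 (adjusted p = 0.00229). Gpd1, which makes the glycerol backbone of triglyceride, and Cavin1, a coat protein of caveolae, were higher by 2.77 ± 0.48 (adjusted p = 0.00392) and 2.58 ± 0.46 (adjusted p = 0.00493). Mogat1, an enzyme that joins a fatty acid to monoacylglycerol, read 8.22, 8.44 and 8.93 on the wild type arrays (mean 8.53 ± 0.36) and 7.04, 6.85 and 7.20 on the ob/ob arrays (mean 7.03 ± 0.18) and fell by 1.5 ± 0.28 (adjusted p = 0.00606). Lgals12, a galectin of the lipid droplet, did not differ by more than its error, at 0.01 ± 0.42. The list's median difference was 0.69 against wild type array 1, 1.31 against array 2 and 0.00333 against array 3. Its median level was 13.67, 13.19 and 15.05 on the wild type arrays and 15.09, 14.65 and 14.76 on the ob/ob arrays, so wild type arrays 1 and 2 stood low and array 3 among the ob/ob arrays. The count of higher calls was 14 without wild type array 3 and 3 without ob/ob array 1, ob/ob array 3, wild type array 1 or wild type array 2, and the lower count was 1 without ob/ob array 2.

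Lipid synthesis and breakdown genes differed gene by gene. The shares over all clusters were 9.02% higher and 5.05% lower. They were 17.6% and 11.8% in the fatty acid synthesis list and 16.7% and 11.1% in the lipolysis list. Me1, malic enzyme, which supplies NADPH for fatty acid synthesis, read 13.93, 13.14 and 14.49 on the wild type arrays (mean 13.85 ± 0.68) and 15.58, 15.92 and 16.11 on the ob/ob arrays (mean 15.87 ± 0.27) and was higher by 2.02 ± 0.35 (adjusted p = 0.00401). Fads2, which inserts a double bond into polyunsaturated fatty acids, read 18.13, 17.96 and 13.24 on the wild type arrays (mean 16.44 ± 2.77) and 10.79, 11.69 and 10.31 on the ob/ob arrays (mean 10.93 ± 0.70). It fell by 5.51 ± 1.17 (adjusted p = 0.0115), but wild type array 3 lay far below arrays 1 and 2, and against wild type array 3 alone the difference was -2.31 (adjusted p = 0.126). Mlxipl, the carbohydrate-sensing transcription factor ChREBP, differed by -0.02 ± 0.62 with overlapping groups. Of 17 genes of fatty acid synthesis, 3 were called higher and 2 lower, with a median of 0.10. The higher count was 1 without ob/ob array 2, ob/ob array 3 or wild type array 2, and the lower count was 1 without any one of ob/ob arrays 1 and 3, wild type arrays 1 and 2 and the 3 arrays of extract-treated mice. Of 18 genes of lipolysis, 3 were called higher and 2 lower, with a median of 0.26. Ptger3, a receptor through which prostaglandin E2 restrains lipolysis, read 8.54, 7.79 and 9.61 on the wild type arrays (mean 8.65 ± 0.91) and 11.64, 11.38 and 12.04 on the ob/ob arrays (mean 11.69 ± 0.33). It was higher by 3.04 ± 0.49 (adjusted p = 0.00265) and its groups did not overlap. Prkar2b, the regulatory subunit of protein kinase A in fat, was higher by 1.69 ± 0.34 (adjusted p = 0.00872), and by 1.11 (adjusted p = 0.13) without wild type arrays 1 and 2. Npr1, a natriuretic peptide receptor, differed by 0.16 ± 0.36 with overlap. Without wild type array 3 the higher count was 5, and the lower count was 1 without ob/ob array 1 and 0 without ob/ob array 2. Without wild type arrays 1 and 2 the counts were 1 higher and 4 lower.

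Genes of fuel oxidation and insulin action are read against all clusters, of which 9.02% were called higher and 5.05% lower. Of 24 genes of branched-chain amino acid breakdown 1 (4.17%) was called higher and 2 (8.33%) lower. The lower pair was Ivd, isovaleryl-CoA dehydrogenase, at 10.45, 9.91 and 10.96 on the wild type and 9.19, 8.95 and 8.88 on the ob/ob arrays (difference -1.43 ± 0.28, adjusted p = 0.00712), and Mccc2, a subunit of methylcrotonyl-CoA carboxylase, at 10.62, 10.17 and 10.99 on the wild type and 9.25, 9.37 and 9.32 on the ob/ob arrays (difference -1.28 ± 0.26, adjusted p = 0.00969). Both act in the breakdown of leucine, and in both every ob/ob array lay below every wild type array. Hsd17b10, a dehydrogenase of isoleucine breakdown, differed by 0.00 ± 0.46. The single higher member was not called without any one of ob/ob arrays 1, 2 and 3 or wild type arrays 1 and 2. With quantile normalization 5 members were lower. Of 24 genes of the citrate cycle and pyruvate entry 2 (8.33%) were called higher and 1 (4.17%) lower, and 6 were called higher without wild type array 3 and 1 without ob/ob array 3; the lower call was lost without ob/ob array 1 or 2, wild type array 1 or 2, or extract array 1 or 2. Idh3a, a subunit of isocitrate dehydrogenase, was higher by 2.01 ± 0.32 (adjusted p = 0.00237), and Pdk1, which inhibits pyruvate entry, differed by -0.05 ± 0.44. Of 19 genes of insulin signalling, 1 was called in each direction (5.26% each): Ptpn1, a phosphatase that acts on the insulin receptor, was higher by 2.10 ± 0.39 (adjusted p = 0.00592), and Irs1, an insulin receptor substrate, fell by 1.5 ± 0.39 (adjusted p = 0.0303), a call lost without any single ob/ob array. Counts of 2 were reached without wild type array 1 in both directions and without array 3 in the higher one, and Foxo3, a factor that insulin restrains, differed by -0.02 ± 0.27. Ucp1, the uncoupling protein of brown fat, read 4.06, 4.13 and 4.38 on the wild type and 5.16, 4.90 and 4.48 on the ob/ob arrays. That difference of 0.66 ± 0.31 was not called (adjusted p = 0.206), although the groups did not overlap. Of 18 thermogenic genes 3 (16.7%) were called higher, 0 of them without ob/ob array 2, and 0 lower, with a median of 0.14. In the fit with array 3 as the lone wild type sample the counts were 1 higher and 4 lower. Dio2, which activates thyroid hormone, differed by 0.11 ± 0.29.

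Macrophage genes of the lipid-associated type held the largest shift of any list. The lists were chosen with earlier results of these data known, so their shares describe and do not test. Of 20 measured members of this list 18 were called higher and 0 lower, against 9.02% of all clusters called higher, and all 20 differences were above 0. Their median difference was 4.82, and it was 4.80, 4.76 and 4.28 against wild type arrays 1, 2 and 3. Gpnmb, a glycoprotein of the lysosomal and cell membrane, read 6.88, 7.76 and 8.0 on the wild type arrays (mean 7.55 ± 0.59) and 17.52, 18.41 and 16.87 on the ob/ob arrays (mean 17.60 ± 0.77). Its difference of 10.05 ± 0.43 (adjusted p = 2.96e-06) was the largest of the list. Mmp12, the elastase of macrophages, read 10.14, 9.0 and 10.48 on the wild type arrays (mean 9.87 ± 0.78) and 18.86, 19.34 and 18.59 on the ob/ob arrays (mean 18.93 ± 0.38), a difference of 9.06 ± 0.39 (adjusted p = 2.96e-06). Lgals3, galectin 3, read 5.69, 6.06 and 7.35 on the wild type arrays (mean 6.37 ± 0.87) and 15.77, 14.98 and 14.58 on the ob/ob arrays (mean 15.11 ± 0.61), a difference of 8.74 ± 0.44 (adjusted p = 4.89e-06). For these 3 genes every wild type array lay far below every ob/ob array. Trem2, a lipid-sensing receptor that defines these macrophages, read 4.22, 3.56 and 4.52 on the wild type arrays (mean 4.10 ± 0.49) and 11.05, 10.39 and 9.34 on the ob/ob arrays (mean 10.26 ± 0.86). It was higher by 6.16 ± 0.42 (adjusted p = 2.23e-05), and its partner gene was called too, as given with the receptors. Apoe, a lipoprotein that fat cells make as well, did not differ beyond its error, at 0.22 ± 0.24. Without wild type arrays 1 and 2, 16 of the 20 were called higher.

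Adgre1, which encodes a surface marker of most macrophages, read 8.35, 7.32 and 8.29 on the wild type arrays (mean 7.99 ± 0.58) and 12.56, 13.14 and 12.14 on the ob/ob arrays (mean 12.61 ± 0.50). The ob/ob arrays stood well above all wild type arrays, by 4.63 ± 0.42 (adjusted p = 9.02e-05). Another usual marker, Cd68, has no cluster of its own in the table. Of genes of resident fat macrophages, 5 of 18 (27.8%) were called higher and 0 lower, beside 9.02% and 5.05% of all clusters. The median difference was 0.97, and it was 1.25 and 1.24 against wild type arrays 1 and 2 and -0.23 against array 3. Folr2, a folate receptor, read 6.96, 7.26 and 8.29 on the wild type arrays (mean 7.5 ± 0.70) and 11.17, 10.09 and 10.25 on the ob/ob arrays (mean 10.50 ± 0.58) and was higher by 3.00 ± 0.53 (adjusted p = 0.00443). Mrc1, the mannose receptor CD206, read 10.83, 11.76 and 13.11 on the wild type arrays (mean 11.90 ± 1.15) and 14.93, 14.15 and 14.98 on the ob/ob arrays (mean 14.69 ± 0.47) and was higher by 2.79 ± 0.55 (adjusted p = 0.00791). In both genes array 3 was the highest of the wild type arrays, and neither was called against array 3 alone (2.21, adjusted p = 0.0687, and 1.58, adjusted p = 0.087). Gas6, which bridges dying cells to their receptors, differed by 0.41 ± 0.51 with overlap. Without both wild type arrays 1 and 2, 0 were called higher and 2 lower. The higher count was also 2 without ob/ob array 1 or wild type array 1, and 3 without ob/ob array 2, ob/ob array 3, wild type array 2 or extract array 2; the lower count was 2 without wild type array 1 and 1 without extract array 1. The difference between the lists themselves was not tested.

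**Figure D3:**
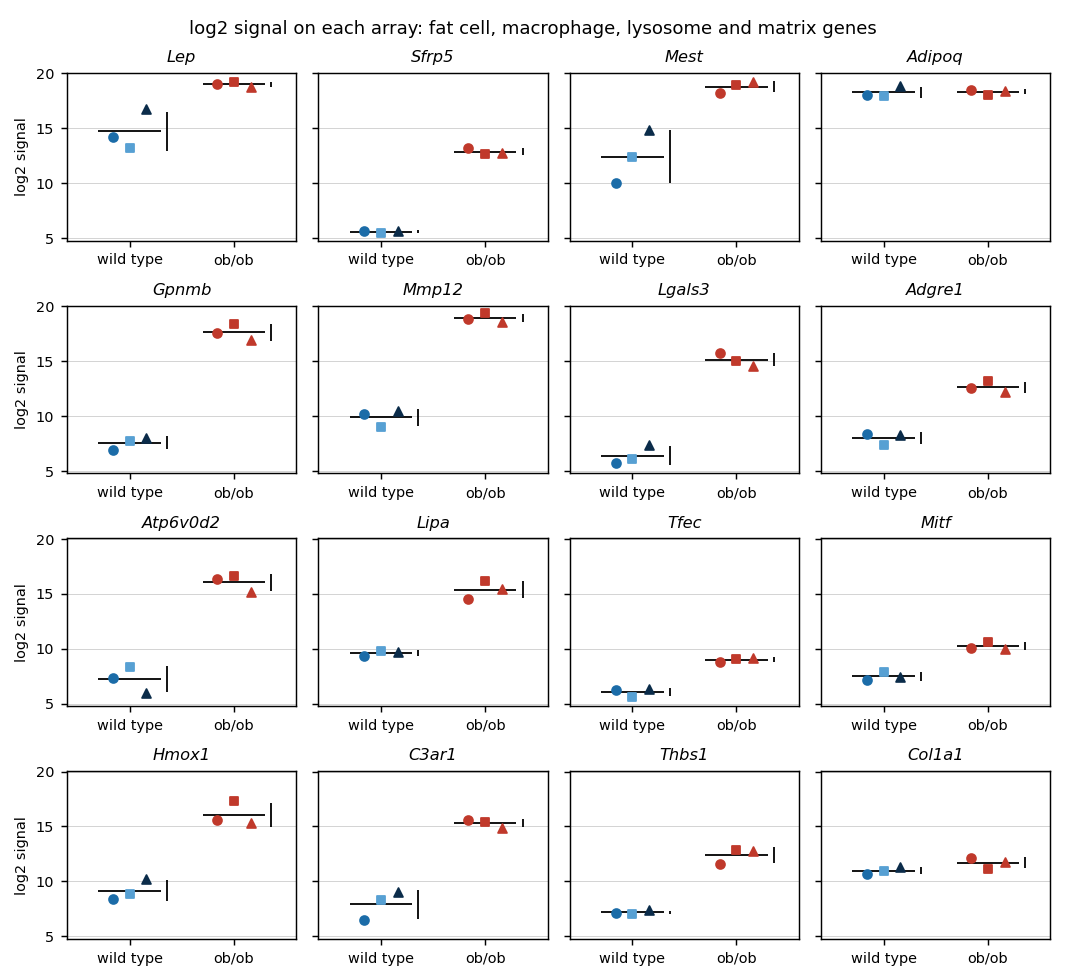
Points are the log2 signal of each array (y axis) in wild type (blue) and ob/ob vehicle (red) fat for 16 genes, with circle, square and triangle for arrays 1, 2 and 3, the line at the group mean and the bar its SD. For Gpnmb, Mmp12, Lgals3 and Sfrp5 the groups lie over 6 log2 apart at every array, while Adipoq and Col1a1 overlap.

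Many genes of the lysosome rose. Of 19 measured subunits of the V-ATPase 10 (52.6%) were called higher and 0 lower, beside 9.02% and 5.05% of all clusters. Median differences were 0.88, 0.99 and 1.12 against the 3 wild type arrays. Of the 10, 7 were called in each fit that left out 1 array. Atp6v0d2, the form of the d subunit found in osteoclasts and macrophages, read 7.34, 8.37 and 5.99 on the wild type arrays (mean 7.23 ± 1.19) and 16.31, 16.65 and 15.15 on the ob/ob arrays (mean 16.04 ± 0.79). The difference of 8.80 ± 0.57 (adjusted p = 1.87e-05) was the largest of the pump. Atp6v0d1, the form made in nearly all cells and chosen here as its counterpart after its values were seen, read 10.58, 10.99 and 10.79 on the wild type and 12.81, 12.25 and 12.15 on the ob/ob arrays and was higher by 1.62 ± 0.24 (adjusted p = 0.00177). Also higher were Tcirg1, the a subunit of osteoclasts, at 3.96 ± 0.41 (adjusted p = 0.000203), Atp6v1b2, a nucleotide-binding subunit, at 3.81 ± 0.31 (adjusted p = 4.91e-05), and Atp6v0a1, another a subunit, at 2.96 ± 0.39 (adjusted p = 0.000801). Atp6v0e2 differed least, at -0.07 ± 0.46, with overlapping groups.

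Of 40 lysosomal hydrolases and membrane proteins 27 (67.5%) were called higher and 0 lower, beside 9.02% and 5.05% of all clusters. The median difference was 1.75, and it was 1.91, 1.55 and 1.36 against wild type arrays 1, 2 and 3. Lipa, the acid lipase that frees fatty acids and cholesterol inside the lysosome, read 9.30, 9.81 and 9.69 on the wild type arrays (mean 9.60 ± 0.27) and 14.53, 16.12 and 15.46 on the ob/ob arrays (mean 15.37 ± 0.80). Ctsk, cathepsin K, which cuts collagen, read 7.14, 7.44 and 8.19 on the wild type arrays (mean 7.59 ± 0.54) and 12.63, 12.97 and 12.30 on the ob/ob arrays (mean 12.63 ± 0.34). Ctss, cathepsin S, read 9.82, 10.71 and 11.21 on the wild type arrays (mean 10.58 ± 0.70) and 16.31, 15.83 and 16.01 on the ob/ob arrays (mean 16.05 ± 0.24). The ob/ob arrays of all 3 genes lay above all wild type arrays, by 5.77 ± 0.38 (adjusted p = 2.02e-05), 5.04 ± 0.30 (adjusted p = 1.4e-05) and 5.47 ± 0.37 (adjusted p = 2.18e-05). Lgmn, the asparagine-specific protease legumain, was higher by 3.67 ± 0.28 (adjusted p = 3.85e-05). Neu1, the lysosomal sialidase, differed by -0.08 ± 0.46 with overlap. Of the 27, 19 were called in each fit that left out 1 of the 9 arrays, and 20 of the 40 were called higher without wild type arrays 1 and 2.

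**Figure D4:**
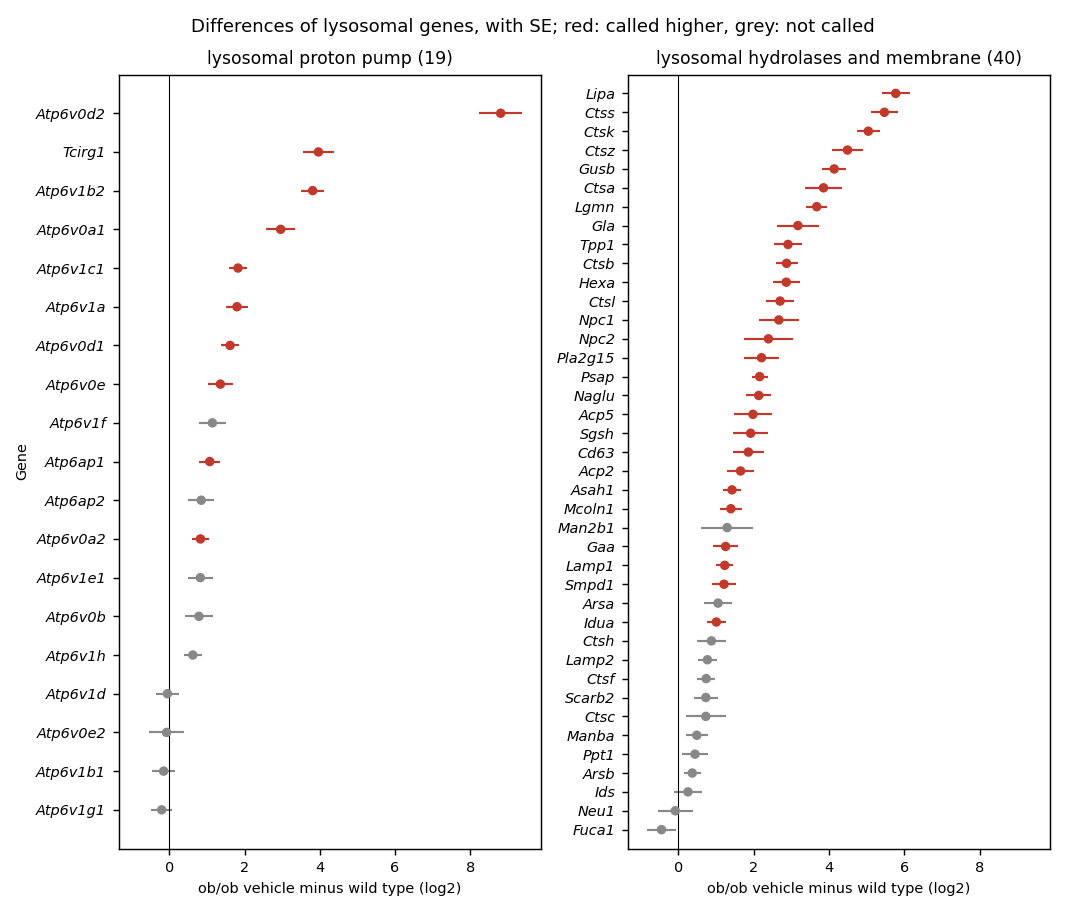
Points are the ob/ob vehicle minus wild type differences (x axis, log2) of 19 proton pump genes (left) and 40 lysosomal hydrolase and membrane genes (right), each with its SE; red marks genes called higher and grey those not called. Atp6v0d2 at 8.80 stands apart from the other pump subunits, the next being Tcirg1 at 3.96.

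The transcription factors and nutrient sensors that act on the lysosome were called in part. Tfec, the member of the MiT/TFE family with the narrowest expression, found in macrophages, read 6.24, 5.61 and 6.32 on the wild type arrays (mean 6.06 ± 0.39) and 8.75, 9.09 and 9.13 on the ob/ob arrays (mean 8.99 ± 0.21). Mitf, a member active in osteoclasts and pigment cells, read 7.11, 7.90 and 7.41 on the wild type arrays (mean 7.47 ± 0.40) and 10.07, 10.64 and 9.93 on the ob/ob arrays (mean 10.21 ± 0.38). Tfe3 read 6.55, 6.97 and 7.38 on the wild type arrays (mean 6.97 ± 0.41) and 9.99, 9.70 and 8.90 on the ob/ob arrays (mean 9.53 ± 0.56). The ob/ob arrays of these 3 genes lay above all wild type arrays, by 2.93 ± 0.27 (adjusted p = 9.5e-05), 2.74 ± 0.33 (adjusted p = 0.000463) and 2.56 ± 0.33 (adjusted p = 0.000773). The remaining member Tfeb, named to complete the family, read 6.17, 6.32 and 5.71 on the wild type and 6.25, 5.95 and 6.58 on the ob/ob arrays and was not called (0.19 ± 0.25, adjusted p = 0.676). Fnip2, a partner of folliculin in the signalling that keeps these factors out of the nucleus, was higher by 3.11 ± 0.30 (adjusted p = 0.000125). Gabarapl1, an autophagy protein, differed by 0.02 ± 0.34 with overlap. In all 9 of 17 such genes (52.9%) were called higher and 0 lower, beside 9.02% and 5.05% of all clusters, with a median difference of 1.23. Of the 17, 5 were called higher without wild type arrays 1 and 2.

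Promoters of lysosomal genes were searched for the sequence that these factors bind. The letters searched were CACGTG and the longer TCACGTGA, which contains it; both read the same on either strand. The window ran from 250 bases before to 50 after the start site in RefSeq's annotation of GRCm38.p6. TCACGTGA was found in 0.974% of all 32851 promoters and in 1.45% of the 15691 genes with a cluster and a promoter, and in 2.83% of the 1413 such genes called higher. It was found in 3 of 13 proton pump genes and 3 of 36 hydrolase and membrane genes, all 6 of them called higher. Of the genes that were not called, 0 of 7 pump and 0 of 12 hydrolase genes held it. At a share of 1.45%, 0 matches among so few genes is unremarkable, and the split between called and not called was not tested. CACGTG was found in 9.26% of those 15691 genes, in 12.0% of those called higher, in 30.8% of the pump genes and in 30.6% of the hydrolase and membrane genes. Genes that were not called held it too, 1 of 7 pump genes and 2 of 12 hydrolase and membrane genes. A match describes these letters only and shows no binding. The stretches below are those of the 4 called genes with TCACGTGA before the start site, shown to give the sequence with its surroundings; they are written 5′ to 3′ along the gene's strand with TCACGTGA in capitals. Ctsa, a protective protein for other hydrolases, lies on chromosome 2 (+ strand, chr2:164833714-164833772). Atp6v1a, the catalytic subunit of the pump, lies on chromosome 16 (- strand, chr16:44139338-44139437). Gla, alpha-galactosidase, lies on chromosome X (- strand, chrX:134601180-134601255) and its stretch holds TCACGTGA at 2 places. Mcoln1, a calcium channel of the lysosome, lies on chromosome 8 (+ strand, chr8:3500427-3500518), and its stretch holds CACGTG at another place too, left in lower case.
Ctsa: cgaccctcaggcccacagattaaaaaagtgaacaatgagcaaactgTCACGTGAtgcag
Atp6v1a: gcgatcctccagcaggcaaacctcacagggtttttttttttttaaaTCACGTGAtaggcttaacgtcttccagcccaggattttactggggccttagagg
Gla: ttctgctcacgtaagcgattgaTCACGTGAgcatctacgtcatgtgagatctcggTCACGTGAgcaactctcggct
Mcoln1: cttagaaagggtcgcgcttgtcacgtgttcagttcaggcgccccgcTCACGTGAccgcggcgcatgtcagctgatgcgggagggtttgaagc
The 4 genes were higher in ob/ob fat by 3.85 ± 0.49 (Ctsa, adjusted p = 0.000683), 1.80 ± 0.29 (Atp6v1a, adjusted p = 0.00254), 3.17 ± 0.55 (Gla, adjusted p = 0.00422) and 1.39 ± 0.30 (Mcoln1, adjusted p = 0.0117), and only Mcoln1 lost its call when 1 array was left out, ob/ob array 2. They were named for this sequence after their values were seen.

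Receptors and signalling proteins of phagocytes were called higher in large part. The share called higher was 65.2% in the Fc receptor and ITAM signalling list, beside 9.02% of all clusters. Of 23 Fc receptor and ITAM signalling genes 15 were called higher and 0 lower, 14 of them also without wild type arrays 1 and 2, with median differences of 2.16, 2.55 and 2.08 against the wild type arrays. Lilrb4a, an inhibitory receptor of myeloid cells, read 7.08, 8.40 and 8.60 on the wild type arrays (mean 8.03 ± 0.83) and 15.11, 15.43 and 14.34 on the ob/ob arrays (mean 14.96 ± 0.56). Pirb, a paired inhibitory receptor, read 6.11, 6.91 and 8.18 on the wild type arrays (mean 7.07 ± 1.04) and 13.12, 14.00 and 12.68 on the ob/ob arrays (mean 13.27 ± 0.67). Fcgr3, a receptor for antibody complexes, read 9.31, 10.75 and 11.07 on the wild type arrays (mean 10.38 ± 0.94) and 15.39, 15.64 and 15.45 on the ob/ob arrays (mean 15.49 ± 0.13). Their ob/ob arrays lay above all wild type arrays, by 6.93 ± 0.44 (adjusted p = 1.73e-05), 6.20 ± 0.49 (adjusted p = 4.41e-05) and 5.12 ± 0.41 (adjusted p = 4.41e-05). Tyrobp, the adaptor DAP12 through which Trem2 signals and named here as that partner, read 5.80, 6.94 and 7.19 on the wild type and 12.33, 11.65 and 11.17 on the ob/ob arrays, a difference of 5.07 ± 0.42 (adjusted p = 5.23e-05). Plcg2, a phospholipase further down this path, differed by 0.25 ± 0.40 with overlap, but was called higher at 1.19 (adjusted p = 0.0372) when wild type array 3 was the lone wild type sample.

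Among 20 scavenger receptors and lectins 12 were called higher and 0 lower, and 7 without wild type arrays 1 and 2. Msr1, the scavenger receptor for modified lipoproteins, read 5.85, 5.47 and 5.54 on the wild type arrays (mean 5.62 ± 0.20) and 10.19, 10.29 and 10.52 on the ob/ob arrays (mean 10.33 ± 0.17). It was higher by 4.71 ± 0.25 (adjusted p = 7.14e-06) with closely grouped arrays on both sides. The lectins Clec12a, Clec4d and Clec4a3 were higher by 5.75 ± 0.47 (adjusted p = 4.91e-05), 5.47 ± 0.61 (adjusted p = 0.00031) and 3.48 ± 0.42 (adjusted p = 0.000481). Marco, a scavenger receptor of other macrophage populations, read 5.93, 5.25 and 5.02 on the wild type and 5.56, 5.44 and 5.56 on the ob/ob arrays and did not differ beyond its error. Among 23 chemokine receptors and adhesion molecules of leukocytes 10 (43.5%) were called higher and 0 lower, all 10 in each fit without 1 array. The share called higher was 60% in the list of scavenger receptors and lectins, and 9.02% over all clusters. Itgax, the integrin CD11c, read 3.77, 3.49 and 4.68 on the wild type arrays (mean 3.98 ± 0.62) and 8.71, 9.59 and 8.42 on the ob/ob arrays (mean 8.91 ± 0.61), a difference of 4.93 ± 0.39 (adjusted p = 4.37e-05). Itgb2, the integrin chain shared by leukocytes, was higher by 6.80 ± 0.57 (adjusted p = 6.04e-05). Cxcr6, a chemokine receptor of T cells, differed by -0.11 ± 0.40 with overlap.

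Complement genes were called in both directions, 35% higher and 10% lower, beside 9.02% and 5.05% of all clusters. The receptors for the small fragments C3a and C5a rose: C3ar1 read 6.47, 8.30 and 9.03 on the wild type arrays (mean 7.93 ± 1.32) and 15.56, 15.41 and 14.86 on the ob/ob arrays (mean 15.28 ± 0.37) and C5ar1 read 6.97, 7.08 and 6.92 on the wild type arrays (mean 6.99 ± 0.08) and 11.65, 12.19 and 10.68 on the ob/ob arrays (mean 11.51 ± 0.77). No array of one group reached the other, and the differences were 7.34 ± 0.55 (adjusted p = 3.28e-05) and 4.52 ± 0.35 (adjusted p = 4.01e-05). C1qb, a chain of the first component made by macrophages, and Cd59a, which blocks the final pore, were higher by 5.21 ± 0.48 (adjusted p = 9.73e-05) and 3.82 ± 0.34 (adjusted p = 9.02e-05). Cfp, properdin, differed by 0.03 ± 0.40 with overlap. The 2 members called lower were C2, an early protease, at -1.85 ± 0.42 (adjusted p = 0.0163), and C7, part of the final pore, at 13.61, 14.84 and 16.29 on the wild type and 8.92, 9.44 and 12.89 on the ob/ob arrays, -4.50 ± 0.98 (adjusted p = 0.013). The lower count was 1 without ob/ob array 1 and 0 without ob/ob array 2. In all 7 of 20 were called higher and 2 lower, and the list's median was 1.93 and 1.95 against wild type arrays 1 and 2 and 0.00167 against array 3.

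Of 15 genes of the phagocyte oxidase and antimicrobial defence 9 (60%) were called higher and 0 lower, beside 9.02% and 5.05% of all clusters. The list's medians were 2.86, 2.56 and 2.29 against the wild type arrays. Cybb, the catalytic subunit of the oxidase, read 8.77, 9.16 and 10.70 on the wild type arrays (mean 9.54 ± 1.02) and 14.30, 15.03 and 13.92 on the ob/ob arrays (mean 14.42 ± 0.56). Its difference was 4.87 ± 0.47 (adjusted p = 0.000125), and that of Ncf1, its cytosolic partner p47phox, was 3.45 ± 0.31 (adjusted p = 9.49e-05). Mpeg1, a pore-forming protein of phagosomes, was higher by 6.44 ± 0.45 (adjusted p = 2.5e-05). Lcn2, lipocalin 2, read 9.45, 13.36 and 15.26 on the wild type and 12.86, 11.99 and 12.28 on the ob/ob arrays, so wild type array 1 lay below and arrays 2 and 3 above all ob/ob arrays. Of iron and heme genes 8 of 21 (38.1%) were called higher and 0 lower. Hmox1, which breaks down heme, read 8.36, 8.86 and 10.24 on the wild type arrays (mean 9.15 ± 0.97) and 15.56, 17.30 and 15.32 on the ob/ob arrays (mean 16.06 ± 1.08). It was higher by 6.91 ± 0.58 (adjusted p = 6.04e-05). Slc11a1, a metal transporter of the phagosome, was higher by 5.75 ± 0.29 (adjusted p = 4.89e-06), Slc48a1, a heme transporter, by 3.34 ± 0.37 (adjusted p = 0.000288), and Ftl1, ferritin light chain, by 3.26 ± 0.35 (adjusted p = 0.000273). Tfrc, the transferrin receptor, differed by 0.18 ± 0.46 with overlap. The iron list's median was 1.38 and 1.41 against wild type arrays 1 and 2 and 0.25 against array 3, and 1 member was called lower without ob/ob array 3 or without wild type array 1.

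Of 15 genes of the MHC class II path 4 (26.7%) were called higher, against 9.02% of all clusters, and 0 lower: the proteases Ctss and Lgmn given above, Ifi30, a lysosomal thiol reductase, at 4.07 ± 0.39 (adjusted p = 0.000115), and the costimulator Cd80 at 1.99 ± 0.35 (adjusted p = 0.00438). No class II chain was among these 4, and the other 11 measured members were not called. H2-DMb2, a chain of the peptide loader, read 4.79, 7.06 and 8.47 on the wild type and 7.15, 7.21 and 6.45 on the ob/ob arrays and differed by 0.16 ± 0.79 with overlap. In the lists of other leukocytes 1 gene at most was called in each direction, where 9.02% of all clusters were called higher and 5.05% lower. Their median levels were below the array medians of 6.26 to 6.37. They lay at 4.58 to 5.05 for T and NK cells, 3.84 to 4.38 for B cells, 5.26 to 5.43 for neutrophils and 5.17 to 5.77 for mast cells. How many members were detected was not tested, so few calls do not show that these cells were unchanged. Of 21 T and NK cell genes 1 (4.76%) was called higher and 0 lower. That gene, Il7r, the interleukin 7 receptor, read 6.33, 4.62 and 5.57 on the wild type arrays (mean 5.51 ± 0.86) and 11.66, 12.90 and 12.37 on the ob/ob arrays (mean 12.31 ± 0.62). All ob/ob arrays lay far above the wild type arrays, by 6.80 ± 0.44 (adjusted p = 1.87e-05), while the median of the list was -0.08 and Prf1, perforin, differed by -0.05 ± 0.30. Of 12 B cell genes 1 (8.33%) was called higher, Cd22, an inhibitory receptor, at 1.28 ± 0.32 (adjusted p = 0.0242), a call lost without ob/ob array 2 or 3, while Cd79b, part of the B cell receptor, differed by 0.03 ± 0.28. Of 13 neutrophil genes 1 was called higher and 1 lower (7.69% each). The lower one, Mmp9, gelatinase B, read 4.23, 5.98 and 5.69 on the wild type and 3.15, 3.63 and 3.15 on the ob/ob arrays, a difference of -1.99 ± 0.41 (adjusted p = 0.00953). The higher one, Csf3r, the receptor for granulocyte colony-stimulating factor, at 1.33 ± 0.33 (adjusted p = 0.025), was not called without ob/ob array 2, ob/ob array 3 or wild type array 2. Il1b, interleukin 1 beta, differed by -0.05 ± 0.26. Counts of 2 were reached without extract array 1 or 3 for the higher and without wild type array 3 for the lower direction. Of 10 mast cell genes 1 (10%) was called lower, Gata2, a transcription factor that fat precursors and epithelium express too, at 11.23, 10.72 and 7.93 on the wild type and 7.55, 7.27 and 7.37 on the ob/ob arrays (adjusted p = 0.0342); it was not called in 8 of the 9 fits without 1 array, and 1 member was called higher without wild type array 2. Fcer1a, the IgE receptor chain, differed by 0.00 ± 0.27.

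Collagen chains and the proteins that modify and bind them were called in both directions. Of 23 collagen chains 3 (13%) were called higher and 2 (8.7%) lower, with a median of 0.10. These shares lie near the 9.02% and 5.05% of all clusters. Col1a1, the main chain of fibrillar collagen, read 10.66, 10.93 and 11.31 on the wild type arrays (mean 10.97 ± 0.33) and 12.15, 11.17 and 11.74 on the ob/ob arrays (mean 11.69 ± 0.49) and was not called (0.72 ± 0.43, adjusted p = 0.315). Col5a1, a chain that starts fibrils, read 4.49, 4.84 and 5.15 on the wild type arrays (mean 4.83 ± 0.33) and 7.47, 6.98 and 7.22 on the ob/ob arrays (mean 7.22 ± 0.24). It was higher by 2.40 ± 0.29 (adjusted p = 0.000531), and Col6a2, of the beaded filaments around fat cells, by 2.38 ± 0.47 (adjusted p = 0.00812). The basement membrane chains went both ways: Col4a2 was higher by 2.11 ± 0.41 (adjusted p = 0.00709), a call lost against wild type array 3 alone (1.19, adjusted p = 0.0861), and Col4a4, a chain of epithelial basement membranes, fell by 2.11 ± 0.40 (adjusted p = 0.00642). Col18a1 differed by -0.01 ± 0.24. The higher count was 5 without wild type array 3, and the lower count was 1 without ob/ob array 1, ob/ob array 2, wild type array 2 or any one extract array.

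Of 28 crosslinking enzymes, proteases and their inhibitors 10 (35.7%) were called higher and 1 (3.57%) lower, beside 9.02% and 5.05% of all clusters. The list's medians were 1.75, 1.39 and 0.48 against the wild type arrays. The 10 include the macrophage elastase Mmp12 and the lysosomal protease Ctsk, which had the largest t of the list and whose values are given with the macrophage and lysosomal genes. Lox, lysyl oxidase, which crosslinks collagen and elastin, read 8.90, 9.81 and 10.91 on the wild type arrays (mean 9.87 ± 1.01) and 14.26, 14.24 and 14.76 on the ob/ob arrays (mean 14.42 ± 0.29). The ob/ob arrays all lay above the wild type arrays, by 4.55 ± 0.49 (adjusted p = 0.000273). Plaur, the receptor of urokinase, was higher by 3.14 ± 0.30 (adjusted p = 0.000127). Its ligand Plau, urokinase, read 14.32, 13.52 and 9.98 on the wild type and 12.27, 12.71 and 12.63 on the ob/ob arrays, so that wild type arrays 1 and 2 lay above and array 3 below all ob/ob arrays. Its difference was -0.07 ± 0.88; it was -1.38 (adjusted p = 0.0158) without wild type array 3 and 2.56 (adjusted p = 0.00178) without wild type arrays 1 and 2, and so turned direction. The single lower member was Mmp9, and 2 were lower without wild type array 3. Of 30 matricellular and TGF beta family genes 10 (33.3%) were called higher and 2 (6.67%) lower. Thbs1, thrombospondin 1, which can activate TGF beta, read 7.13, 7.06 and 7.35 on the wild type arrays (mean 7.18 ± 0.15) and 11.54, 12.81 and 12.79 on the ob/ob arrays (mean 12.38 ± 0.73). Its difference of 5.20 ± 0.35 (adjusted p = 2.1e-05) was the largest of the list. Thbs2, its relative, Fbln2, an extracellular fibulin, and Tnc, tenascin C, were higher by 3.16 ± 0.38 (adjusted p = 0.000465), 2.64 ± 0.30 (adjusted p = 0.000316) and 2.53 ± 0.39 (adjusted p = 0.00228). Inhbb, an activin subunit, differed by 0.07 ± 0.26 with overlap. The lower pair was Bmp7, a growth factor of kidney and epithelium, at -1.79 ± 0.28 (adjusted p = 0.00236), and Ltbp1, which binds latent TGF beta, at -1.86 ± 0.41 (adjusted p = 0.014), and 1 of them remained without ob/ob array 1 or 2.

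Vessel, progenitor and mesothelial genes are read here against 9.02% of all clusters called higher and 5.05% lower. Of 25 endothelial and angiogenic genes 1 was called in each direction (4.0% each), both ligands of the receptor Tie2: Angpt2 read 5.62, 6.34 and 6.95 on the wild type and 8.34, 7.76 and 7.46 on the ob/ob arrays (1.55 ± 0.35, adjusted p = 0.0156), and Angpt1 read 9.26, 10.78 and 10.76 on the wild type arrays (mean 10.27 ± 0.87) and 6.29, 7.13 and 8.18 on the ob/ob arrays (mean 7.20 ± 0.95). All ob/ob arrays lay below the wild type arrays for Angpt1, with a difference of -3.07 ± 0.55 (adjusted p = 0.00503), and above them for Angpt2, a call lost without ob/ob array 1, where 2 genes were called lower. Cldn5, a tight junction protein of endothelium, differed by -0.17 ± 0.44 with overlap. Of 18 stromal progenitor genes 3 (16.7%) were called higher and 0 lower, 5 without wild type array 3 and 0 without wild type arrays 1 and 2. Fap, a surface protease of activated fibroblasts, read 6.47, 7.22 and 7.97 on the wild type arrays (mean 7.22 ± 0.75) and 9.07, 9.44 and 10.33 on the ob/ob arrays (mean 9.61 ± 0.65), and Zfp423, a factor of fat cell precursors, read 7.68, 8.12 and 9.96 on the wild type arrays (mean 8.59 ± 1.21) and 11.10, 11.23 and 10.90 on the ob/ob arrays (mean 11.08 ± 0.17). Their differences were 2.39 ± 0.42 (adjusted p = 0.00435) and 2.49 ± 0.50 (adjusted p = 0.00872), and 1.64 (adjusted p = 0.0516) and 1.12 (adjusted p = 0.0697) without wild type arrays 1 and 2. Dcn, decorin, differed by -0.04 ± 0.47. Of 14 mesothelial genes 3 (21.4%) were called lower, the keratins Krt8, Krt18 and Krt19, which other epithelia make too; Gpm6a, a membrane protein of mesothelium, read 9.22, 9.82 and 9.18 on the wild type and 9.81, 8.21 and 10.68 on the ob/ob arrays and differed by 0.16 ± 0.99 with overlap.

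Epithelial genes had the lowest median of all lists. This list too was chosen with earlier results of these data known. Of 31 epithelial adhesion and keratin genes 22 were called lower and 0 higher, against 5.05% of all clusters called lower, and all 31 differences were below 0. Their median was -3.80, -4.0 and -1.46 against wild type arrays 1, 2 and 3, and 20 were called lower without arrays 1 and 2. Epcam, an adhesion molecule of nearly all epithelia, read 10.86, 11.15 and 9.91 on the wild type arrays (mean 10.64 ± 0.65) and 4.80, 3.89 and 5.10 on the ob/ob arrays (mean 4.60 ± 0.63). Prom1, prominin 1, a protein of apical membrane protrusions, read 13.06, 15.34 and 12.33 on the wild type arrays (mean 13.58 ± 1.57) and 5.27, 6.08 and 6.48 on the ob/ob arrays (mean 5.94 ± 0.62). Cdh1, the adhesion molecule E-cadherin, read 13.32, 14.09 and 9.90 on the wild type arrays (mean 12.44 ± 2.23) and 5.22, 5.30 and 5.05 on the ob/ob arrays (mean 5.19 ± 0.13). All wild type arrays lay above all ob/ob arrays in these 3 genes, with differences of -6.04 ± 0.40 (adjusted p = 2.1e-05), -7.63 ± 0.64 (adjusted p = 6.28e-05) and -7.25 ± 0.85 (adjusted p = 0.000439), with array 3 the lowest wild type array in each. The keratins Krt8 and Krt18, which pair in simple epithelia, fell too: Krt8 read 10.06, 10.90 and 10.52 on the wild type and 5.46, 5.98 and 6.85 on the ob/ob arrays. Krt18 read 9.54, 10.67 and 9.08 on the wild type and 5.17, 4.72 and 5.81 on the ob/ob arrays. No ob/ob array reached a wild type array in either. Jup, a junction protein that fat also expresses, differed by -0.09 ± 0.46 with overlap.

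Transcription factors of the urogenital tract and transport genes of epithelia in general were in part called lower too. Of 16 urogenital factors 5 (31.2%) were called lower and 0 higher, beside 5.05% of all clusters called lower. Pax8, a factor of kidney and genital duct epithelium, read 12.26, 12.61 and 9.23 on the wild type arrays (mean 11.37 ± 1.86) and 3.72, 4.08 and 4.88 on the ob/ob arrays (mean 4.23 ± 0.59). Pax2, its relative, read 10.45, 10.77 and 6.29 on the wild type arrays (mean 9.17 ± 2.50) and 3.23, 3.35 and 3.25 on the ob/ob arrays (mean 3.28 ± 0.06), and Emx2, a factor needed for urogenital development, read 11.28, 11.08 and 7.94 on the wild type arrays (mean 10.10 ± 1.87) and 5.87, 5.86 and 5.91 on the ob/ob arrays (mean 5.88 ± 0.03). Array 3 was the lowest wild type array in all 3 and still lay above every ob/ob array, and the differences were -7.14 ± 0.74 (adjusted p = 0.000207), -5.89 ± 0.93 (adjusted p = 0.0025) and -4.22 ± 0.71 (adjusted p = 0.00353). Wt1, a factor that mesothelium shares, differed by -0.45 ± 0.37 with overlap. The count was 8 without wild type array 3 and 3 without ob/ob array 1 or 3. Of 25 epithelial transport genes 10 (40%) were called lower and 0 higher. The lower count was 3, 4 and 4 without ob/ob array 2, 1 and 3, and 6 without extract array 1 or 2. Pdzk1ip1, a small membrane protein of kidney and other epithelia, read 11.11, 11.73 and 12.43 on the wild type arrays (mean 11.76 ± 0.66) and 4.22, 3.35 and 3.37 on the ob/ob arrays (mean 3.65 ± 0.50). The wild type arrays lay close together and far above the ob/ob arrays, and the difference was -8.11 ± 0.36 (adjusted p = 3.05e-06). Cftr, a chloride channel, fell by 1.56 ± 0.33 (adjusted p = 0.0111), and Slc5a1, an intestinal and renal glucose transporter, differed by 0.01 ± 0.26.

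Secretory genes of the male tract differed strongly between the wild type arrays. Called lower were 12.9% of their list, beside 5.05% of all clusters. Of 31 genes of epididymis, seminal vesicle and prostate 4 were called lower and 0 higher, 2 without ob/ob array 2, 9 without wild type array 3 and 10 without wild type arrays 1 and 2. Cuzd1, a secreted protein of reproductive tissue, read 10.30, 18.19 and 12.52 on the wild type arrays (mean 13.67 ± 4.07) and 4.89, 5.08 and 4.82 on the ob/ob arrays (mean 4.93 ± 0.13). All wild type arrays lay above the ob/ob arrays, with a difference of -8.74 ± 1.5 (adjusted p = 0.0039). With SDs of 4.07 and 0.13, this SE, from a spread shared by the groups, can be too small. Defb30, a beta defensin of the epididymis, read 8.44, 8.05 and 5.75 on the wild type arrays (mean 7.41 ± 1.45) and 4.64, 4.41 and 4.74 on the ob/ob arrays (mean 4.60 ± 0.17), a difference of -2.82 ± 0.58 (adjusted p = 0.0102), and of -1.15 (adjusted p = 0.0717) without wild type arrays 1 and 2. Lcn10, an epididymal lipocalin, read 4.77, 4.34 and 4.65 on the wild type and 4.72, 4.37 and 4.63 on the ob/ob arrays and showed no difference beyond its error.

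Single arrays held sets of such genes, counted where 1 array stood 3 or more log2 from each of the other 5. The examples in this paragraph were chosen after their values were seen and carry no test of that choice. Wild type array 2 stood above the others in 101 genes, 12 of them called, wild type array 3 in 33, wild type array 1 in 3 and the ob/ob arrays in 0, 0 and 1. Adam7, a membrane protein of the epididymis, read 5.21, 17.10 and 7.46 on the wild type and 4.29, 4.36 and 4.93 on the ob/ob arrays, and Ces5a, an epididymal esterase, read 7.28, 15.51 and 6.41 on the wild type and 6.17, 6.06 and 6.11 on the ob/ob arrays. Both were thus bright on wild type array 2 alone. Svs5, a protein of the seminal vesicle, read 4.09, 3.88 and 12.17 on the wild type and 3.39, 4.11 and 3.77 on the ob/ob arrays. Svs4, another, read 4.75, 4.55 and 10.67 on the wild type and 4.99, 4.90 and 4.67 on the ob/ob arrays. Both were bright on wild type array 3 alone. In 99 genes wild type arrays 1 and 2 together stood as far above the other 4 arrays, and 36 of these were called. Spink8, a protease inhibitor of the epididymis, read 16.80, 16.68 and 5.32 on the wild type and 4.52, 4.66 and 6.64 on the ob/ob arrays. Ptgs2, the prostaglandin synthase COX-2, read 18.51, 18.67 and 6.35 on the wild type and 4.21, 5.32 and 8.62 on the ob/ob arrays. Neither was called (adjusted p = 0.0731 and 0.0683), and wild type array 3 lay within the range of the ob/ob arrays. Gpx5, a peroxidase of the epididymis, was the 1 gene that ob/ob array 3 held, at 3.82, 4.39 and 8.10 on the ob/ob and 5.05, 4.13 and 4.02 on the wild type arrays.

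**Figure D5:**
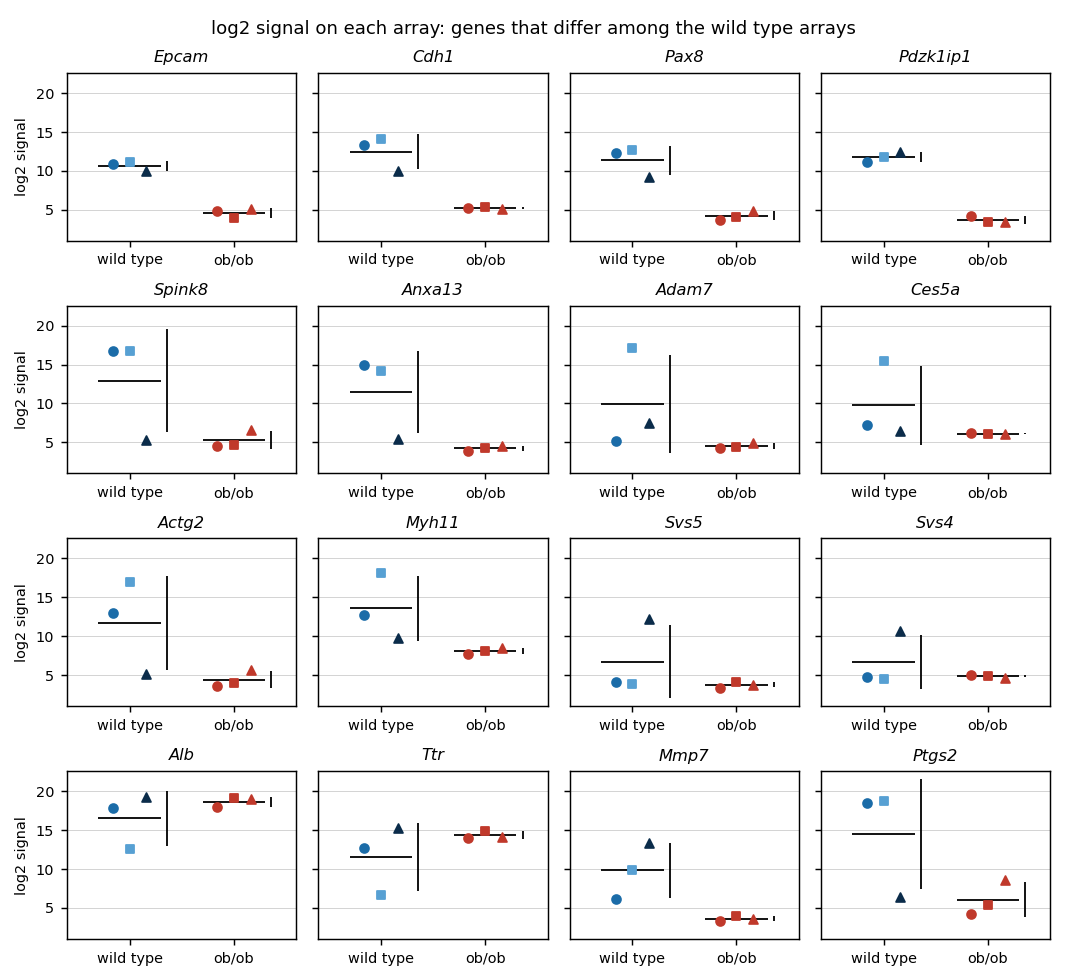
Points are the log2 signal of each array (y axis) in wild type (blue) and ob/ob vehicle (red) fat for 16 epithelial, secretory, smooth muscle and other genes, with circle, square and triangle for arrays 1, 2 and 3, the line at the group mean and the bar its SD. Epcam, Cdh1, Pax8 and Pdzk1ip1 are bright on all wild type arrays, Spink8, Anxa13 and Ptgs2 on arrays 1 and 2, Adam7 and Ces5a on array 2, and Svs5 and Svs4 on array 3, while Alb and Ttr are lowest on wild type array 2.

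Smooth muscle and liver genes followed single arrays as well. The liver list held 5% higher calls and the smooth muscle list 22.2% lower calls, beside 9.02% and 5.05% of all clusters. Of 18 smooth muscle genes 4 were called lower and 0 higher, 12 without wild type array 3, 2 without ob/ob array 1 or 3 and 1 without ob/ob array 2; 1 was higher without wild type array 2. Kcnmb1, a potassium channel subunit of smooth muscle, read 7.70, 10.80 and 9.72 on the wild type arrays (mean 9.41 ± 1.57) and 6.66, 6.32 and 6.04 on the ob/ob arrays (mean 6.34 ± 0.31). All wild type arrays lay above the ob/ob arrays, with a difference of -3.07 ± 0.63 (adjusted p = 0.0101). Myh11, the myosin of smooth muscle and a called member chosen after its values were seen, read 12.74, 18.13 and 9.79 on the wild type and 7.64, 8.04 and 8.45 on the ob/ob arrays, a difference of -5.51 ± 1.56 (adjusted p = 0.0416), a call kept in 2 of the 9 fits that left out 1 array. Hspb6, a small heat shock protein, read 11.00, 14.86 and 9.40 on the wild type and 12.66, 11.76 and 10.82 on the ob/ob arrays and differed by -0.01 ± 1.12. Of 15 skeletal muscle genes 0 were called by limma, 2 had an unadjusted p under 0.05, and 2 were called lower without wild type array 3; Mylpf, a fast muscle light chain, read 4.24, 3.67 and 4.42 on the wild type and 4.94, 3.89 and 3.25 on the ob/ob arrays. Of 20 genes that the liver secretes 1 was called higher, Orm1, an acute phase protein that fat also makes, at 10.07, 8.57 and 11.19 on the wild type and 14.00, 12.67 and 13.35 on the ob/ob arrays (3.40 ± 0.57, adjusted p = 0.00356). Counts were 4 higher without wild type array 3, 2 higher without ob/ob array 2 or extract array 1, and 1 lower without wild type array 2. Itih4, a plasma protease inhibitor, differed by 0.08 ± 0.71. Alb, serum albumin, named for its plot, read 17.82, 12.51 and 19.17 on the wild type and 17.91, 19.11 and 18.92 on the ob/ob arrays: wild type array 2 was over 5 log2 below each other array.

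Stress, clock and oxygen-linked genes were called one by one. The shares over all clusters were 9.02% higher and 5.05% lower. They were 25% and 8.33% in the hypoxia and glycolysis list and 22.2% and 16.7% in the glucocorticoid list. Of 24 genes of hypoxia and glycolysis 6 were called higher and 2 lower. Gapdh, an enzyme of glycolysis, read 15.16, 14.71 and 15.45 on the wild type and 16.94, 16.80 and 16.68 on the ob/ob arrays. Ldha, which makes lactate, read 13.86, 13.85 and 14.99 on the wild type and 15.97, 15.93 and 16.44 on the ob/ob arrays. The groups did not overlap in either, with differences of 1.70 ± 0.25 (adjusted p = 0.00165) and 1.88 ± 0.35 (adjusted p = 0.00619); for Ldha it was 1.12 (adjusted p = 0.0945) without wild type arrays 1 and 2. Hk3, the hexokinase of white blood cells, was higher by 2.08 ± 0.29 (adjusted p = 0.00129), and Adm, the vasodilator adrenomedullin, by 1.59 ± 0.27 (adjusted p = 0.00363). Slc16a3, a lactate transporter, differed by 0.04 ± 0.51. The higher count was 10 without wild type array 3 and 3 without wild type arrays 1 and 2. The lower pair was Slc2a3, a glucose transporter, at 8.56, 10.71 and 5.71 on the wild type and 4.53, 4.84 and 3.87 on the ob/ob arrays, and Egln3, an oxygen sensor, at 6.89, 9.34 and 6.70 on the wild type and 4.95, 5.35 and 6.21 on the ob/ob arrays (adjusted p = 0.023 and 0.0479); the count was 0 without any single ob/ob array and 1 without wild type array 1, wild type array 2 or any one extract array. Of 18 genes of glucocorticoid activation and response 4 were called higher and 3 lower. Mt2, a metallothionein, read 14.85, 13.48 and 15.05 on the wild type and 17.92, 16.50 and 16.83 on the ob/ob arrays and was higher by 2.62 ± 0.47 (adjusted p = 0.00464), while Fkbp5, a chaperone of the glucocorticoid receptor and a classical target of it, read 15.18, 15.62 and 15.59 on the wild type and 12.43, 12.92 and 13.91 on the ob/ob arrays and fell by 2.38 ± 0.37 (adjusted p = 0.00237). The list had both directions among its called members, and Hsd11b2, which inactivates the hormone, differed by -0.05 ± 0.23. Mt2 and Fkbp5 were the only 2 members called in each fit without 1 array, and the higher count was 1 without ob/ob array 2 and 2 without ob/ob array 1, ob/ob array 3, wild type array 1, wild type array 2 or extract arrays 2 or 3; the lower was 1 without ob/ob array 3 or wild type array 1.

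Of 21 genes of the unfolded protein and amino acid stress response 3 (14.3%) were called higher, beside 9.02% of all clusters. The count was 1 without ob/ob array 2 or extract array 3. Atf3, a stress-induced transcription factor, read 8.41, 7.56 and 8.74 on the wild type arrays (mean 8.24 ± 0.61) and 12.15, 12.28 and 11.99 on the ob/ob arrays (mean 12.14 ± 0.15). It was higher by 3.90 ± 0.33 (adjusted p = 6.83e-05), while Hspa5, the main chaperone of the endoplasmic reticulum, differed by 0.03 ± 0.46 with overlap. One member was called lower without extract array 1. Of 18 clock genes 1 was called in each direction (5.56% each, beside 9.02% higher and 5.05% lower over all clusters). The lower one was Per3, a period protein, at 10.70, 11.42 and 11.08 on the wild type and 8.98, 9.50 and 8.42 on the ob/ob arrays (-2.10 ± 0.37, adjusted p = 0.0046). The higher one was Rora, a receptor that drives the clock gene Arntl, at 1.18 ± 0.35 (adjusted p = 0.0473). Rora has 3 clusters, of which this one was called, in 2 of the 9 fits without 1 array, 2 genes were lower without wild type array 3, and Nfil3, a repressor of clock output, differed by -0.11 ± 0.41. Of 22 cholesterol genes 7 (31.8%) were called higher and 1 (4.55%) lower, and 4 lower without wild type array 3. Abcg1, which exports cholesterol, read 6.35, 6.66 and 7.12 on the wild type and 10.54, 10.70 and 10.35 on the ob/ob arrays. Nceh1, which frees cholesterol from its esters, read 8.25, 9.31 and 8.0 on the wild type and 13.60, 14.96 and 13.61 on the ob/ob arrays. Both stood clear of the wild type arrays, by 3.82 ± 0.30 (adjusted p = 4.37e-05) and 5.54 ± 0.44 (adjusted p = 4.41e-05). Pltp, phospholipid transfer protein, was higher by 4.51 ± 0.72 (adjusted p = 0.00272). Of the enzymes of synthesis, Dhcr7, which acts last, was higher by 3.43 ± 0.45 (adjusted p = 0.000815), and Fdft1, squalene synthase and the 1 lower member, read 10.98, 11.22 and 10.26 on the wild type and 8.92, 9.07 and 8.77 on the ob/ob arrays, a difference of -1.90 ± 0.31 (adjusted p = 0.00299). Fdps, which acts before it, read 9.05, 9.14 and 5.81 on the wild type and 7.75, 8.10 and 7.42 on the ob/ob arrays. Its difference of -0.24 ± 0.75 turned direction with the wild type arrays used: -1.34 (adjusted p = 0.0193) without array 3, and 1.95 (adjusted p = 0.0164) without arrays 1 and 2.

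Of 29 subunits of the respiratory chain and ATP synthase 5 (17.2%) were called lower and 0 higher, with a median of -0.22 and of -0.25, -0.35 and -0.28 against the wild type arrays. Ndufv1, a subunit of complex I that binds NADH, read 13.77, 13.26 and 13.58 on the wild type arrays (mean 13.54 ± 0.26) and 12.28, 12.45 and 12.41 on the ob/ob arrays (mean 12.38 ± 0.09). All ob/ob arrays lay below the wild type arrays, with a difference of -1.16 ± 0.21 (adjusted p = 0.00567). Ndufa1, another complex I subunit, differed by -1.41 ± 0.29 (adjusted p = 0.00926), and by -0.96 (adjusted p = 0.1) without wild type arrays 1 and 2, where 1 subunit was called. Counts were 2 without ob/ob array 2 and 3 without ob/ob array 3 or wild type array 2, and 9 after quantile normalization. Uqcrfs1, the iron-sulfur protein of complex III, differed by -0.02 ± 0.24. Of 22 cytosolic ribosomal proteins 1 (4.55%) was called lower, beside 5.05% of all clusters, and 0 without ob/ob array 2, ob/ob array 3 or wild type array 2. Rpl7 had the same mean in both groups to 2 decimals.

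Among genes in none of the 44 lists, which held 189 of the 1766 higher and 78 of the 988 lower calls, the 10 largest increases were taken from the clusters called in each fit without 1 array. Slc5a7, the transporter that takes up choline, read 4.26, 3.22 and 3.69 on the wild type arrays (mean 3.72 ± 0.52) and 13.17, 13.52 and 14.57 on the ob/ob arrays (mean 13.75 ± 0.73). Gpr50, a relative of the melatonin receptors, read 4.93, 5.06 and 4.01 on the wild type arrays (mean 4.67 ± 0.57) and 12.99, 15.23 and 12.56 on the ob/ob arrays (mean 13.59 ± 1.43). Tm4sf19, a tetraspan membrane protein of osteoclasts and macrophages, read 4.59, 3.79 and 4.10 on the wild type arrays (mean 4.16 ± 0.40) and 12.05, 13.88 and 12.15 on the ob/ob arrays (mean 12.69 ± 1.03). All 3 read 5.06 or lower on every wild type array and 12.05 or higher on every ob/ob array, and the differences were 10.03 ± 0.67 (adjusted p = 2.1e-05), 8.93 ± 1.32 (adjusted p = 0.00168) and 8.53 ± 0.46 (adjusted p = 7.14e-06). Lilr4b, an inhibitory receptor close to Lilrb4a in sequence, so that probes may be shared, was higher by 7.40 ± 0.35 (adjusted p = 4.22e-06). Anpep, aminopeptidase N, read 7.01, 8.15 and 9.08 on the wild type and 15.53, 15.62 and 14.47 on the ob/ob arrays (7.13 ± 0.48, adjusted p = 2.23e-05). Lctl, a relative of lactase, was higher by 7.07 ± 0.62, Adam8, a membrane protease of leukocytes, by 7.02 ± 0.50, Il1rn, which blocks the interleukin 1 receptor, by 6.81 ± 0.51, Rgs1, a brake on G protein signalling in leukocytes, by 6.79 ± 0.40, and Slc37a2, a sugar phosphate transporter of macrophages, by 6.77 ± 0.37. The adjusted p of these 5 lay between 7.56e-06 and 7.57e-05, and in none did the groups overlap.

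The largest decreases chosen the same way again differed in their wild type arrays. Mmp7, matrilysin, a protease of glandular epithelium, read 6.18, 9.85 and 13.32 on the wild type arrays (mean 9.78 ± 3.57) and 3.30, 3.94 and 3.50 on the ob/ob arrays (mean 3.58 ± 0.33). Plet1, a surface protein of epithelial progenitors, read 9.11, 10.80 and 14.32 on the wild type arrays (mean 11.41 ± 2.66) and 6.44, 6.07 and 5.95 on the ob/ob arrays (mean 6.15 ± 0.26), and Pkhd1, a protein of cilia in kidney and ducts, read 4.76, 9.65 and 9.98 on the wild type arrays (mean 8.13 ± 2.92) and 2.87, 2.99 and 2.79 on the ob/ob arrays (mean 2.88 ± 0.10). Array 3 was the highest wild type array in these 3, and the differences were -6.20 ± 1.33 (adjusted p = 0.0119), -5.26 ± 0.99 (adjusted p = 0.00641) and -5.25 ± 1.09 (adjusted p = 0.0103). The wild type SDs of these 3 far exceed the ob/ob SDs, so these SEs can be too small. Kcnk1, a potassium channel, Galnt3, which starts mucin-type sugar chains, Ncam1, a neural adhesion molecule, and Cd24a, a surface glycoprotein, had array 3 as the lowest wild type array, and their differences were -5.79 ± 0.71, -5.45 ± 0.65, -5.40 ± 1.15 and -5.30 ± 0.80 (adjusted p between 0.000463 and 0.0115). Arg2, the mitochondrial arginase, read 10.90, 9.28 and 7.74 on the wild type and 3.60, 3.34 and 3.96 on the ob/ob arrays (-5.67 ± 0.65, adjusted p = 0.000353). Sult1e1, which inactivates estrogen by adding sulfate, read 11.03, 12.64 and 12.85 on the wild type arrays (mean 12.17 ± 1.00) and 5.92, 6.09 and 8.42 on the ob/ob arrays (mean 6.81 ± 1.40), and Penk, the precursor of enkephalin peptides, read 13.83, 15.39 and 15.86 on the wild type arrays (mean 15.03 ± 1.06) and 9.86, 8.50 and 10.80 on the ob/ob arrays (mean 9.72 ± 1.16). Both read lowest on wild type array 1. The differences were -5.36 ± 0.67 (adjusted p = 0.000608) and -5.31 ± 0.69 (adjusted p = 0.000773), and -6.04 and -6.14 against array 3 alone.

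Genes beside Lep were set apart since a mutant line can carry linked variants. Of the 25 nearest measured genes on each side on chromosome 6, by RefSeq order in GRCm38.p6, 8 of 50 (16.0%) were called, near the 14.1% of all clusters. The 5 higher were Rbm28, Impdh1, Hilpda, Calu and Irf5, and the 3 lower were Cadps2, Ndufa5 and Ccdc136, named as the whole set of calls. Rbm28, a nucleolar protein, was higher by 2.39 ± 0.34 (adjusted p = 0.00136), Hilpda, which inhibits lipolysis, read 7.06, 7.01 and 7.45 on the wild type and 9.47, 8.84 and 8.75 on the ob/ob arrays and was higher by 1.85 ± 0.34 (adjusted p = 0.00548), and Ndufa5, a complex I subunit, fell by 1.85 ± 0.22 (adjusted p = 0.000454). These 3 were called in each fit without 1 array, and the other 5 were not.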

How the data were processed

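The values are log2 signals that the authors deposited, 1 per transcript cluster and array: Clariom S Mouse arrays hybridized for 16 h with material from 100 ng of RNA and summarised with SST-RMA in Transcriptome Analysis Console 4.0.2, per the labels' protocols and the text of the series. Whether replicates are technical is not stated beyond 3 mice per group, and the genome build is not given in the sources used here. GEO's platform annotation gave 1 symbol to 19572 of 22206 clusters and none to 2634; only the former were tested. A group-means model over all 9 arrays was fitted with limma 3.58.1 in R 4.3.3 (4.02 prior degrees of freedom) and checked on simulated data; errors are SDs over arrays or SEs of the fit. The 44 lists hold 933 genes, 854 of them measured. Members and lists were chosen with earlier results of these data known. Named genes were, per list, the 4 called members with the largest absolute t that stayed called in each of 9 fits leaving out 1 array, and the member with the smallest t; the 10 largest stable increases and decreases in no list (leaving out predicted genes, RIKEN clones and the olfactory, vomeronasal, major urinary, zinc finger and secretoglobin families); and a fixed set that included Adipoq, Lep, Cdh1 and Col1a1. Counts of 5 or fewer may be named; Irs1, Tyrobp, Tfeb, the genes with printed promoters and other genes outside the rule were added after their values were seen. Alternatives covered normalization, samples in the fit, the replicate block, the prior, array weights, dim clusters and the threshold. Array number limits the precision.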

Additional observations from a re-analysis of the deposited data

How the results depend on the processing

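The count of clusters called higher, 1766, ran from 1169 (without ob/ob array 2) to 2110 (without wild type array 3) over the fits without 1 array, and was 1162 without wild type arrays 1 and 2, 970 of them shared with the 1766. The count called lower, 988, ran from 472 (without ob/ob array 2) to 1435 (without wild type array 3), was 1041 without wild type arrays 1 and 2 with 533 shared, 617 without ob/ob array 1, 603 without ob/ob array 3, 532 when only the 6 arrays compared were fitted, and 1601 at an adjusted p under 0.1. Fewer arrays and the lone wild type sample leave less information in these fits; the cause of the other shifts was not tested. Without wild type arrays 1 and 2, Plau was 2.56 and Fdps 1.95, against differences near 0 with all arrays. Of the 170 genes named by the rule, 10 lost a call and 2 changed direction, all without wild type arrays 1 and 2, and 4 gained a call, without those or without wild type array 3. The rule admitted only calls kept in each fit without 1 array, so those fits could end none of them; genes named outside it, such as Irs1, Mcoln1, Angpt2, Cd22, Csf3r, Gata2, Myh11 and Rora, did lose calls there. Median centring gave 1968 higher and 865 lower calls, and quantile normalization 1580 and 1179. With the replicate number as a block the counts were 1651 and 921. Same-numbered arrays shared only a number: the correlations of their deviations from the group means were 0.0838, 0.000525 and -0.0337, so the block was not used. With 3 arrays a group, the spread of any 1 cluster is poorly known.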
